A study of Mus musculus domesticus and Mus musculus domesticus x Mus musculus castaneus and Mus musculus castaneus with 27 samples.

Results

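Motor neurons made from 129CAS and CAS129 mouse stem cells were compared by RNA sequencing, using the 4 libraries of these lines among the 20 libraries analysed. The members were chosen by name: 1 library titled 129CAS MN and 3 libraries titled CAS129 MN. 129CAS and CAS129 are both first-generation hybrids of Mus musculus domesticus and Mus musculus castaneus according to the labels, which give the same description for both and do not say which strain was the mother. The other motor neuron (MN) libraries came from the inbred strains 129S6/SvEv (129, 2 libraries), CAST/EiJ (CAST, 1 library) and C57BL/6 (BL6, 7 libraries), and undifferentiated pluripotent stem cells (PSC) came from CAS129, CAST and BL6 (2 libraries each). The study set out to model variation between mouse species in neurite growth. No treatment, clone number, passage or culture batch is given for these libraries.

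Spinal motor neurons carry signals from the spinal cord to muscle and release acetylcholine. Their identity is set by transcription factors such as Isl1, Mnx1 and Lhx3, and their axons are steered by receptors such as Robo2, which binds Slit proteins. Stem cells lose the pluripotency factor Pou5f1 (Oct4) and leave the cell cycle as they become neurons, so that residual stem cells, dividing progenitors and fibroblast-like cells are the usual companions of neurons in such cultures. Reciprocal hybrids differ in which parent gave each genome, which bears on imprinted genes and on the mitochondrial genome.

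The 129CAS library held 25.69 M counts, against 6.29 M, 6.07 M and 5.61 M in CAS129 replicates 1, 2 and 3. Levels are given as CPM (library counts scaled to a common total), and differences as log2 of 129CAS over CAS129. The 3 CAS129 libraries were close to each other: over the 9257 genes compared, 0.389% to 2.12% differed by over 2-fold between any pair of them, while 26.2% to 30.1% differed by over 2-fold between the 129CAS library and a CAS129 library. The labels do not say that the CAS129 libraries came from separate cultures. The p-values measure the variation within the MN groups of the fit (14 libraries), which could be technical. CAST, with 1 library, adds none of it, and BL6 has the most libraries (7). The 129CAS group has a single library, and its spread was taken from the other MN groups. Whether a difference belongs to the genotype, to the culture or to the single library therefore cannot be told apart.

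The single 129CAS library lay outside the range of the 3 CAS129 libraries for most genes. Of 14837 genes tested, 11451 (77.2%) were above or below all 3 CAS129 values: 5736 (38.7%) above and 5715 (38.5%) below. A single library can often lie outside the range of 3 others without any difference between groups, so that this share is a description. edgeR's quasi-likelihood test called 4498 genes (30.3%) at an adjusted p under 0.05, with 2162 higher (14.6%) and 2336 lower (15.7%) in 129CAS. Of the genes called, 4489 lay outside the CAS129 range and 9 inside it, while 6962 genes lay outside the range without being called. The calls fell to 3302 without CAS129 replicate 1 and came to 4106 when the 129CAS library was thinned to the depth of the CAS129 libraries. Of the genes called higher, 754 were higher in 129CAS than in all 13 other MN libraries, and for 1009 the 3 CAS129 libraries were below all 11 others. Of the genes called lower, 738 were lower in 129CAS than in all 13 others, and for 1239 the 3 CAS129 libraries were above all 11 others. Over all genes tested, 10.8% were higher and 9.61% lower in 129CAS than in all 13 others, and for 16.1% and 12% the CAS129 libraries were above or below all 11 others.

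The 4 genes chosen as markers, with earlier results of these data known, all differed between the hybrids. Isl1, a homeobox factor of motor neurons and sensory neurons (ENSMUSG00000042258, GRCm38 chromosome 13 from 116298281 to 116309689), had 65.1 CPM in 129CAS and 7.28, 10.3 and 12.4 CPM in CAS129. It was 2.70 higher in 129CAS on the log2 scale (SE 0.40, adjusted p = 0.0005). Robo2, the Slit receptor (ENSMUSG00000052516, chromosome 16 from 73891839 to 74411825), had 189 CPM in 129CAS and 12.9, 14.8 and 16.8 CPM in CAS129, a log2 difference of 3.67 (SE 0.36, adjusted p = 1.8e-05). For both genes the 129CAS value was far above all 3 CAS129 values. Among the other MN libraries Isl1 was as high as in 129CAS in CAST (76.9 CPM), but 10.3 and 13.6 CPM in 129 and 6.89 to 19 CPM in BL6, close to CAS129. Robo2 stood the other way: 139 and 178 CPM in 129, 285 CPM in CAST and 47.4 to 109 CPM in BL6, so that CAS129 was the lowest group.

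Pou5f1, the stem cell factor Oct4 (ENSMUSG00000024406, chromosome 17 from 35506018 to 35510772), had 0 counts in the 129CAS library and 170, 170 and 62.2 CPM in CAS129. Against the floor of 3 counts, 0.106 CPM in the 129CAS library, it was at least 1265-fold lower in 129CAS (adjusted p = 1.4e-05). It was under 2 CPM in every MN library of the inbred strains, with 0.401 to 1.71 CPM in BL6. Fbn1, fibrillin 1 of connective tissue microfibrils (ENSMUSG00000027204, chromosome 2 from 125300594 to 125507993), had 190 CPM in 129CAS and 1624, 1545 and 1499 CPM in CAS129, a log2 difference of -3.04 (SE 0.45, adjusted p = 0.00045). The 129CAS level of Fbn1 was also below the 353 and 252 CPM of 129 and the 730 to 1385 CPM of BL6, and below CAST. Of the exon bases of Fbn1, 20.1% overlap an exon of a gene on the opposite strand.

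**Figure D1:**
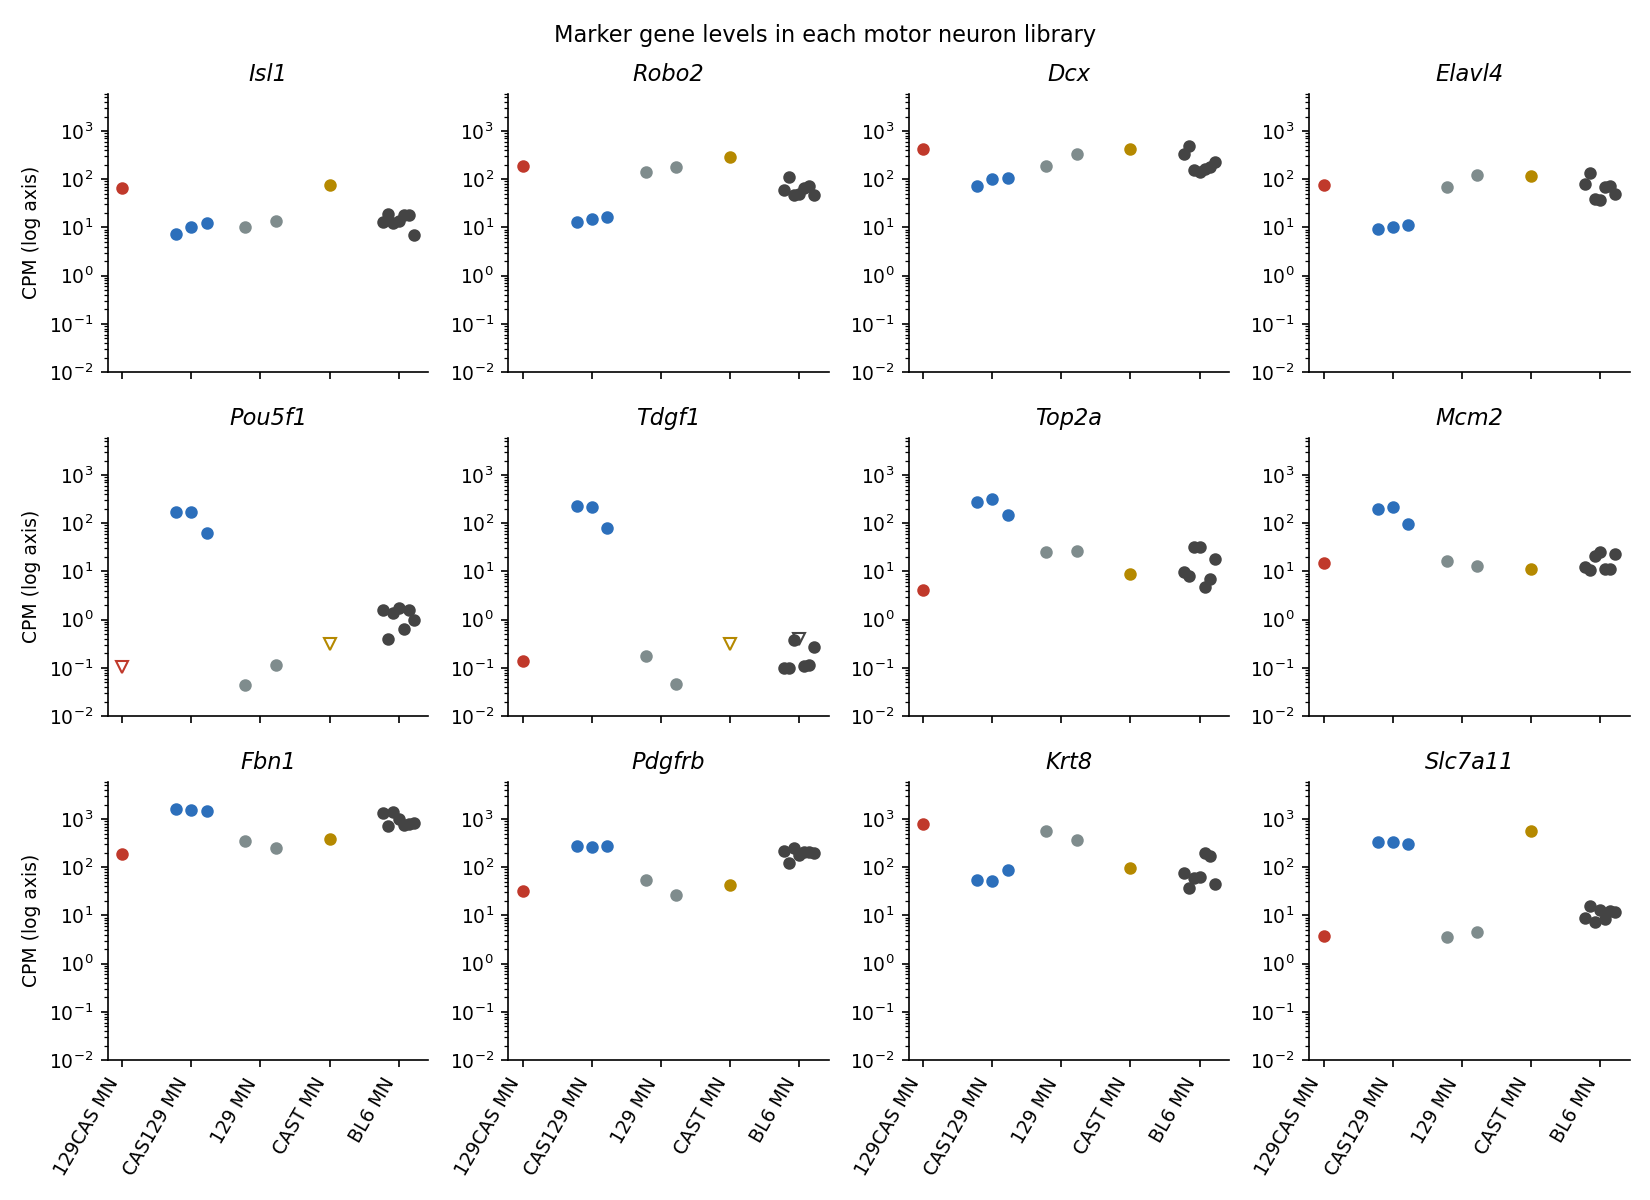
Level of 12 marker genes in each of the 14 MN libraries, as CPM on a log axis, 1 point a library and 1 colour a group; open triangles stand at the level of 3 counts for a library with 0 counts. The 129CAS point lies above the 3 CAS129 points for Isl1, Robo2, Dcx, Elavl4 and Krt8 and below them for Pou5f1, Tdgf1, Top2a, Mcm2, Fbn1, Pdgfrb and Slc7a11.

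The labelled cell type was checked against its defining markers. The acetylcholine genes Chat (choline acetyltransferase), Slc18a3 (the vesicle transporter) and Slc5a7 (the choline transporter) were all present and all higher in 129CAS. Slc5a7 had 173 CPM in 129CAS and 54.1, 46.7 and 52.8 CPM in CAS129 (log2 1.76, SE 0.29, adjusted p = 0.0011). Slc18a3 had 62.1 CPM in 129CAS and 16, 23.2 and 24.6 CPM in CAS129, and Chat had 11.9 CPM in 129CAS and 1.62, 3.17 and 6.19 CPM in CAS129, with adjusted p of 0.041 and 0.047. Slc18a3 lost its call without any 1 of the CAS129 libraries (adjusted p 0.061 to 0.11), and Chat lost it without CAS129 replicate 1 or 2 or either 129 library (adjusted p 0.058 to 0.12). Mnx1 (Hb9) had 4.6 CPM in 129CAS and 1.62, 0.833 and 3.36 CPM in CAS129 and was not called (adjusted p = 0.27). Isl2 was at 0.778 CPM in 129CAS and at most 0.5 CPM in CAS129, and Lhx3 was listed at 0 in all 4 libraries.

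Of the 19 motor neuron genes tested, 9 were higher in 129CAS and 0 lower, against 14.6% and 15.7% of all genes, and the median log2 difference was 1.42, against 0.00 over all genes. Onecut2, a homeobox factor of spinal motor neurons, had the largest difference on this list, with 144 CPM in 129CAS and 4.21, 6 and 4.42 CPM in CAS129 (log2 4.88, SE 0.40, adjusted p = 3.5e-06). Its relative Onecut1, named after its values were seen, had 13.4 CPM in 129CAS and 0.647, 0.333 and 0.707 CPM in CAS129. Prph, the intermediate filament peripherin of motor and sensory axons, had 647 CPM in 129CAS and 125, 146 and 183 CPM in CAS129 (log2 2.09, SE 0.51, adjusted p = 0.0089). The GDNF receptor Ret had 317 CPM in 129CAS and 111, 124 and 119 CPM in CAS129, a log2 difference of 1.42 (adjusted p = 0.031) that lost its call without any 1 of the CAS129 libraries (adjusted p 0.061 to 0.077). Foxp1, a factor of limb motor neurons, had 176 CPM in 129CAS and 163, 156 and 165 CPM in CAS129 (log2 0.13, adjusted p = 0.66). The list count itself fell to 5 of 19 without CAS129 replicate 1.

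Of 22 pan-neuronal genes, 14 were higher in 129CAS and 0 lower, with a median of 1.80. Dcx (doublecortin, a microtubule protein of young neurons) had 422 CPM in 129CAS and 73.6, 100 and 104 CPM in CAS129 (log2 2.19, SE 0.55, adjusted p = 0.011). Elavl4, a neuronal RNA-binding protein, had 74.8 CPM in 129CAS and 9.39, 10.3 and 11 CPM in CAS129 (log2 2.87, SE 0.55, adjusted p = 0.0024). The adhesion molecule gene Ncam1 had 1005 CPM in 129CAS and 343, 385 and 430 CPM in CAS129 (log2 1.38, SE 0.28, adjusted p = 0.0037). In each of these the 129CAS value was above all CAS129 values by a wide margin. Tubb3, the neuronal beta tubulin, rose less, to 684 CPM in 129CAS, against 268, 309 and 317 CPM in CAS129; its log2 difference of 1.20 (adjusted p = 0.041) lost its call without any 1 of the CAS129 or 129 libraries (adjusted p 0.052 to 0.1). Thy1, a surface protein of mature neurons, had 84.5 CPM in 129CAS and 151, 130 and 151 CPM in CAS129 and was not called (adjusted p = 0.094). Map2 and Mapt, 2 major microtubule proteins of neurons, were listed at 0 in all 4 hybrid libraries and say nothing of the comparison. Of the 14 genes called, 9 have no opposite-strand overlap, among 17 such genes on the list. When all genes with overlap were left out before fitting, 8 of these 17 were called. The 14 include Nefl, a neurofilament gene that the annotation places inside Nefm on the other strand; without nested genes 13 were called.

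Synaptic genes gave the same direction. Of 33 synaptic transmission genes, 23 were higher in 129CAS and 0 lower, and 30 lay above the CAS129 range, with a median of 2.11. Syt4, a synaptotagmin of secretory vesicles, had 855 CPM in 129CAS and 146, 188 and 200 CPM in CAS129 (log2 2.26, SE 0.46, adjusted p = 0.0034). The vesicle protein gene Sv2c had 514 CPM in 129CAS and 107, 147 and 144 CPM in CAS129 (log2 1.96, SE 0.41, adjusted p = 0.0043). Dlg4, the postsynaptic scaffold PSD-95, had 118 CPM in 129CAS and 70.1, 68.7 and 89.6 CPM in CAS129 (log2 0.63, adjusted p = 0.084). For 23 of the 33 genes the 3 CAS129 libraries were below all 11 other MN libraries (12% of all genes were), and for 4 the 129CAS library was above all 13 others (10.8% of all genes). On this list 23 genes have no opposite-strand overlap, and 16 of them were called in the main fit. Leaving out all genes with overlap before fitting left 15 of these 23 called.

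Of 32 axon growth and regeneration genes, 11 were higher in 129CAS and 0 lower, with a median of 0.92; this count fell to 5 without CAS129 replicate 1 and to 5 without CAS129 replicate 2. Dpysl2 (CRMP2, which binds tubulin in growing axons) had 764 CPM in 129CAS and 91.6, 106 and 109 CPM in CAS129 (log2 2.90, SE 0.39, adjusted p = 0.00025). In the other MN libraries Dpysl2 was high in 129 (429 and 566 CPM) and nearer to CAS129 in CAST (141 CPM) and BL6 (95.1 to 264 CPM). Its relative Dpysl3 had 2928 CPM in 129CAS and 3631, 3624 and 3868 CPM in CAS129 (log2 -0.34, adjusted p = 0.33). Rtn4 (Nogo), an inhibitor of neurite growth, had 1227 CPM in 129CAS and 1365, 1310 and 1306 CPM in CAS129 (adjusted p = 0.75).

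Of 41 axon guidance genes, 14 were higher (34.1%) and 4 lower (9.76%) in 129CAS, against 14.6% and 15.7% of all genes. The median was 0.42, and 8 were higher without CAS129 replicate 1 or without replicate 2. Robo2 is described above. The falls included secreted cues: Slit3, a Robo ligand, had 57.3 CPM in 129CAS and 341, 335 and 328 CPM in CAS129 (log2 -2.55, SE 0.60, adjusted p = 0.0075). Slit1 of the same family, named after its values were seen, was called higher. The chemokine Cxcl12 had 50.6 CPM in 129CAS and 995, 838 and 938 CPM in CAS129 (log2 -4.19, SE 0.88, adjusted p = 0.0042), and no other MN library passed the 385 CPM of the highest BL6 library. Unc5b, a netrin receptor, had 359 CPM in 129CAS and 752, 678 and 650 CPM in CAS129 and was not called (adjusted p = 0.22).

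**Figure D2:**
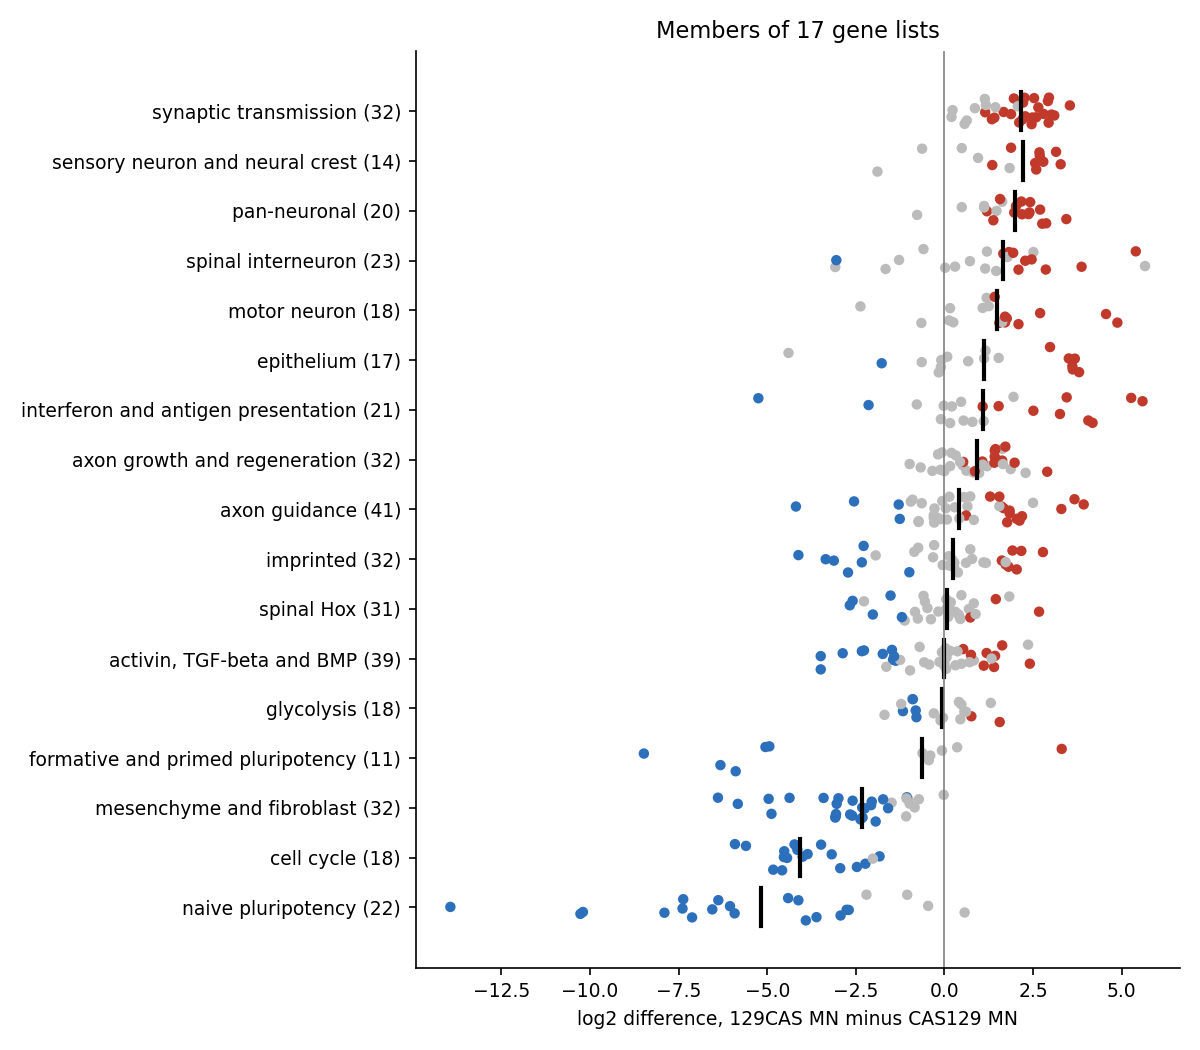
Log2 difference of 129CAS MN minus CAS129 MN for the members of 17 gene lists, 1 point a gene; red points were called higher in 129CAS, blue points lower and grey points were not called, black bars are medians, and the number of genes plotted stands beside each list. Genes with 0 counts in all 4 hybrid libraries are left out, so that the bars sit at or slightly beside the medians given for all tested members. Synaptic, sensory and pan-neuronal genes sit to the right, and mesenchyme, cell cycle and naive pluripotency genes to the left.

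Pluripotency genes were high in all 3 CAS129 MN libraries and low in 129CAS. Of 22 genes of naive pluripotency, 18 were lower in 129CAS and 0 higher, with a median of -5.17, and for 17 of them the 3 CAS129 libraries were above all 11 other MN libraries (16.1% of all genes were). Tdgf1 (Cripto, a Nodal co-receptor) had 0.141 CPM in 129CAS and 229, 222 and 78.3 CPM in CAS129 (log2 -10.20, SE 0.96, adjusted p = 1.2e-05). L1td1, an RNA-binding protein of stem cells, had 3.89 CPM in 129CAS and 282, 325 and 101 CPM in CAS129 (log2 -5.92, SE 0.83, adjusted p = 0.00031). Zfp42 (Rex1) had 5.9 CPM in 129CAS and 167, 153 and 56.4 CPM in CAS129 (log2 -4.41, SE 0.64, adjusted p = 0.0004). CAS129 replicate 3 was the lowest of the CAS129 libraries for all of these, and still well above 129CAS. Members shared with other tissues differed less: Sox2, also a neural progenitor factor, had 15.4 CPM in 129CAS and 84.6, 104 and 22.8 CPM in CAS129 (adjusted p = 0.13), and Klf4 had 35.8 CPM in 129CAS and 69.9, 89.7 and 63.6 CPM in CAS129 (adjusted p = 0.17).

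Of 11 genes of formative and primed pluripotency, 1 was higher (9.09%) and 5 lower (45.5%) in 129CAS, against 14.6% and 15.7% of all genes. Nodal, a signal of the early embryo, had 0.283 CPM in 129CAS and 17.6, 25.8 and 8.31 CPM in CAS129 (log2 -5.89, SE 1.34, adjusted p = 0.0063). Pou3f1 (Oct6), which is shared with neurons, was the member that rose, with 54.5 CPM in 129CAS and 5.02, 7.5 and 3.89 CPM in CAS129 (log2 3.31, SE 0.55, adjusted p = 0.001).

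Cell cycle genes followed the same order. Of 20 tested, 17 were lower in 129CAS and 0 higher, with a median of -3.93, and 2 of the remaining 3, Pcna and Tyms, were listed at 0 in all 4 libraries. Top2a, the topoisomerase of dividing cells, had 4.07 CPM in 129CAS and 272, 317 and 145 CPM in CAS129 (log2 -5.91, SE 1.24, adjusted p = 0.004). The replication helicase gene Mcm2 had 15.2 CPM in 129CAS and 198, 214 and 96.7 CPM in CAS129 (log2 -3.48, SE 0.65, adjusted p = 0.0022). Rrm2, a subunit of ribonucleotide reductase, had 42.4 CPM in 129CAS and 187, 224 and 106 CPM in CAS129 and was not called (adjusted p = 0.08). In bulk RNA, fewer cells of a type and less RNA per cell cannot be told apart, here and for every group of genes below.

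The mean level of each list placed the hybrids among all 20 libraries. For naive pluripotency the mean of log2(CPM + 1) over the 22 genes was 1.97 in 129CAS MN and 5.95, 6.05 and 4.85 in CAS129 MN. It was 1.42 to 2.05 in the 10 MN libraries of the inbred strains and 8.00 and 7.64 in the undifferentiated CAS129 PSC. The 129CAS library thus lay within the range of the other MN libraries, and the CAS129 MN libraries lay between MN and PSC. For the cell cycle list the mean was 2.58 in 129CAS MN and 5.74, 5.86 and 4.93 in CAS129 MN, against 2.76 to 4.11 in the inbred strains' MN and 7.57 and 7.62 in CAS129 PSC. The pan-neuronal mean was 7.30 in 129CAS MN and 5.31, 5.58 and 5.67 in CAS129 MN, against 7.06 to 8.69 in the inbred strains' MN. The cell cycle mean takes in Pcna and Tyms, and the pan-neuronal mean Map2 and Mapt, all listed at 0 in every hybrid MN library. These zeros lower the hybrid MN means beside those of the inbred strains, so that the placement of these lists is only approximate. How much of the neuronal difference goes with the stem cell signal in CAS129 was not tested.

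**Figure D3:**
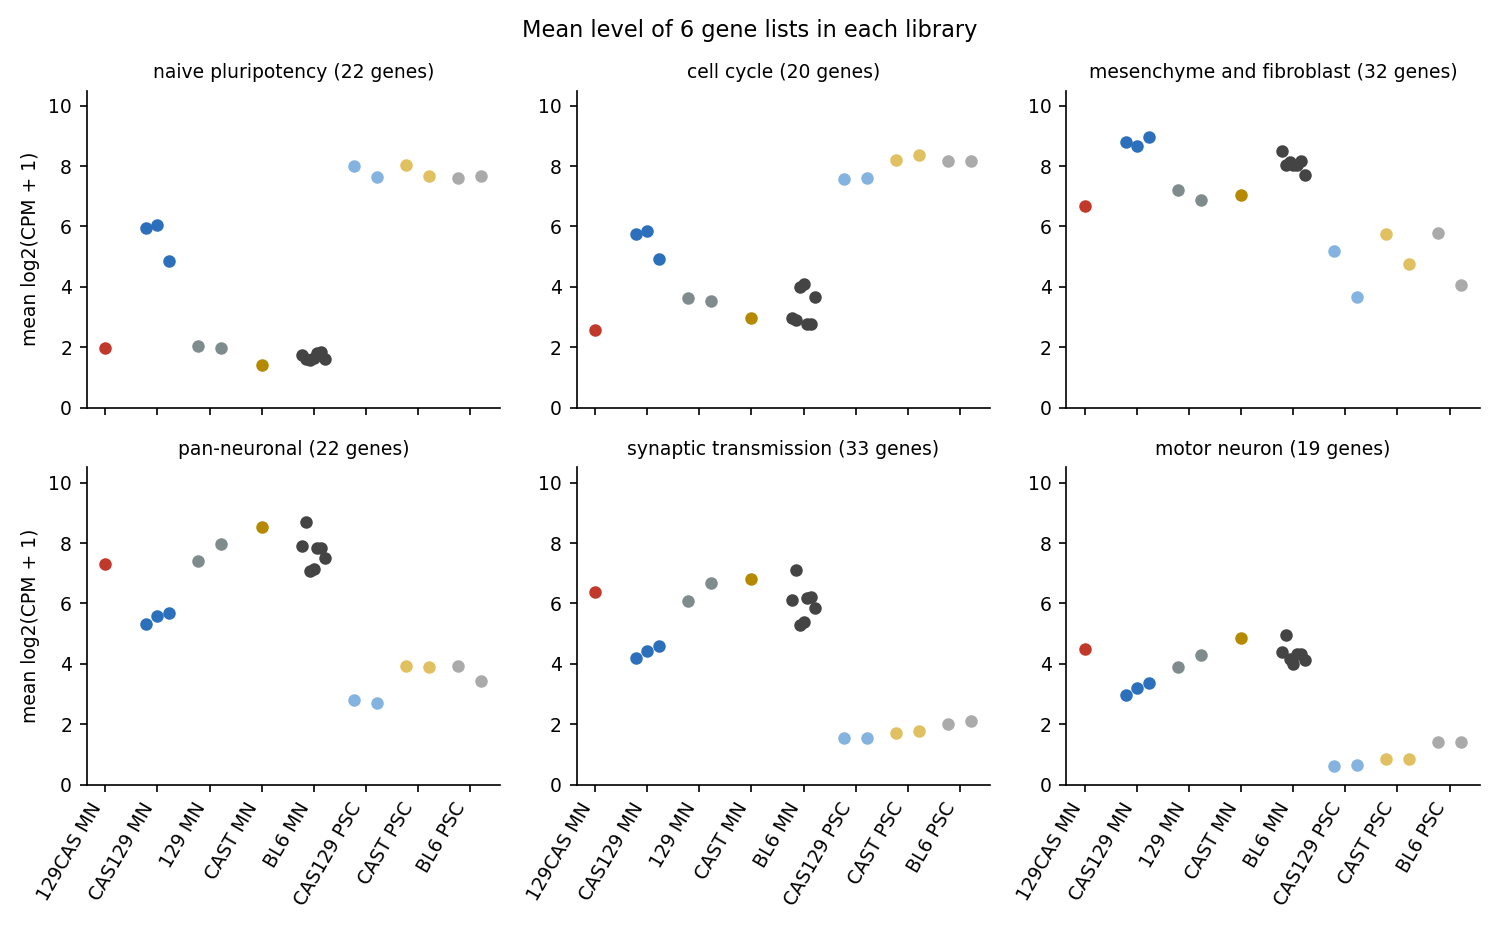
Mean log2(CPM + 1) over the genes of 6 lists in each of the 20 libraries, 1 point a library, with MN groups before PSC groups. The CAS129 MN points lie between the MN and PSC groups for naive pluripotency and cell cycle genes, lie below the other MN points for pan-neuronal, synaptic and motor neuron genes, and lie above them for mesenchyme genes, where 129CAS is the lowest MN point. Genes listed at 0 in every hybrid MN library are kept in the means. They lower the hybrid MN points of the cell cycle, pan-neuronal, synaptic and motor neuron lists beside the inbred strains.

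Connective tissue genes were lower in 129CAS. Of 32 mesenchyme and fibroblast genes, 24 were lower and 0 higher, 31 lay below the CAS129 range, and the median was -2.32. Col5a1, a fibrillar collagen, had 646 CPM in 129CAS and 3302, 3086 and 3301 CPM in CAS129 (log2 -2.32, SE 0.40, adjusted p = 0.0013). Pdgfrb, the PDGF receptor of mural cells and fibroblasts, had 32.2 CPM in 129CAS and 279, 261 and 275 CPM in CAS129 (log2 -3.07, SE 0.45, adjusted p = 0.00043). The proteoglycan gene Dcn (decorin) had 11.1 CPM in 129CAS and 216, 196 and 276 CPM in CAS129 (log2 -4.37, SE 1.18, adjusted p = 0.015). Col1a1, the main collagen of connective tissue, had 1327 CPM in 129CAS and 5581, 5393 and 5782 CPM in CAS129, a log2 difference of -2.07 (adjusted p = 0.038) that lost its call without any 1 of the CAS129 libraries (adjusted p 0.064 to 0.068). Fn1 (fibronectin) had 8581 CPM in 129CAS and 25638, 23742 and 23129 CPM in CAS129 and was not called (adjusted p = 0.081). For 13 of the 32 genes the 129CAS library was below all 13 other MN libraries (9.61% of all genes were), and for 14 the CAS129 libraries were above all 11 others.

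The activin, TGF-beta and BMP pathway signals from secreted ligands through receptors to Smad proteins, and of its 39 genes 8 were higher (20.5%) and 10 lower (25.6%) in 129CAS, against 14.6% and 15.7% of all genes, with a median of 0.00. Among ligands and their binding proteins, Tgfb3 had 145 CPM in 129CAS and 680, 729 and 768 CPM in CAS129 (log2 -2.33, SE 0.64, adjusted p = 0.016). Ltbp2, a matrix protein of the latent TGF-beta binding family, had 366 CPM in 129CAS and 1217, 1160 and 1302 CPM in CAS129 (log2 -1.74, SE 0.41, adjusted p = 0.007). Tgfb2 had 468 CPM in 129CAS and 375, 375 and 382 CPM in CAS129 (adjusted p = 0.56). The ligand Bmp7 and the ligand-binding proteins Nog and Fst were called higher. Bmp4, Grem1, Fstl1, Ltbp1, Ltbp3 and Ltbp4 were also called lower. Among receptors the called members were mostly higher: Bmpr2, Acvr1b, Tgfbr1 and Acvr2a rose in 129CAS and Bmpr1b fell. The call of Acvr1b was lost without CAS129 replicate 1 (adjusted p = 0.056), and that of Bmpr1b without any 1 of the CAS129 libraries or 129 replicate 1 (adjusted p 0.05 to 0.078). These 5 receptors and Bmp7, Nog, Fst, Bmp4, Grem1, Ltbp3 and Ltbp4 were named after their values were seen.

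Of 31 Hox genes tested, which mark position along the body axis, 3 were higher (9.68%) and 5 lower (16.1%) in 129CAS, close to the shares over all genes, with a median of 0.06 and a range of -2.67 to 2.67. Hoxa5, a cervical gene, had 58.9 CPM in 129CAS and 53.9, 57.7 and 58.5 CPM in CAS129, and Hoxb4 had 74.2 CPM in 129CAS and 50.5, 53.3 and 65.2 CPM in CAS129. Neither was called (adjusted p = 0.94 and 0.25). Hoxb5 had 18.4 CPM in 129CAS and 7.44, 4.33 and 8.48 CPM in CAS129 (log2 1.45, SE 0.31, adjusted p = 0.0046). Hoxa7 had 1.63 CPM in 129CAS and 5.5, 8.17 and 6.19 CPM in CAS129 (log2 -2.02, SE 0.54, adjusted p = 0.014).

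Markers of other neurons moved with the motor neuron genes. Of 14 sensory neuron and neural crest genes, 9 were higher in 129CAS and 0 lower, with a median of 2.22. The neurotrophin receptor Ntrk3 had 191 CPM in 129CAS and 15.9, 23.7 and 24.9 CPM in CAS129 (log2 3.15, SE 0.63, adjusted p = 0.003). Scn9a, a sodium channel of sensory neurons, had 123 CPM in 129CAS and 16.5, 16.2 and 20.5 CPM in CAS129 (log2 2.79, SE 0.43, adjusted p = 0.00057). Of 23 spinal interneuron genes, 9 were higher (39.1%) and 1 lower (4.35%), against 14.6% and 15.7% of all genes, with a median of 1.66. The glutamate transporter gene Slc17a6 had 53.9 CPM in 129CAS and 5.5, 10.7 and 13.3 CPM in CAS129, a log2 difference of 2.46 (adjusted p = 0.02) that lost its call without CAS129 replicate 1 (adjusted p = 0.068). Foxp2 was the member that fell, with 3.11 CPM in 129CAS and 26.9, 25.8 and 24.6 CPM in CAS129 (log2 -3.05, SE 0.62, adjusted p = 0.0035). The interneuron count was 5 without CAS129 replicate 1. What these genes contribute to the motor neuron difference was not tested, and Isl1 itself is shared with sensory neurons.

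Among 22 neural progenitor genes, 4 were higher and 4 lower (18.2% each), and among 14 glia genes 2 were higher and 2 lower (14.3% each). These shares were near the 14.6% higher and 15.7% lower over all genes. Nes (nestin) had 264 CPM in 129CAS and 966, 890 and 955 CPM in CAS129 (log2 -1.83, SE 0.50, adjusted p = 0.016). The progenitor gene Irx3 was called the other way, with 8.31 CPM in 129CAS and 2.75, 3.83 and 2.47 CPM in CAS129. Cspg4 (NG2, of oligodendrocyte precursors and pericytes) had 1.48 CPM in 129CAS and 28.3, 26.2 and 31.6 CPM in CAS129 (log2 -4.26, SE 0.77, adjusted p = 0.0017). The glia genes Slc1a2 and Mbp rose. Slc1a2 had 67.2 CPM in 129CAS and 9.39, 9.33 and 8.84 CPM in CAS129 (log2 2.87, SE 0.75, adjusted p = 0.012). Mbp had 29.6 CPM in 129CAS and 4.53, 6.5 and 6.36 CPM in CAS129 (log2 2.35, SE 0.37, adjusted p = 0.00076).

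Epithelial keratins ran opposite to the connective tissue genes. Of 17 epithelium genes, 6 were higher (35.3%) and 1 lower (5.88%) in 129CAS, against 14.6% and 15.7% of all genes, with a median of 1.12. Krt8 had 789 CPM in 129CAS and 54.1, 52.7 and 85.9 CPM in CAS129 (log2 3.62, SE 0.71, adjusted p = 0.0029), and its partner keratin Krt18 had 325 CPM in 129CAS and 23.5, 20.8 and 32 CPM in CAS129 (log2 3.68, SE 0.63, adjusted p = 0.0013). Krt8 was also high in 129 (577 and 366 CPM), and lower in CAST (94.8 CPM) and BL6 (37.5 to 194 CPM). The defining adhesion genes of epithelium were not called: Cdh1 had 69.9 CPM in 129CAS and 125, 131 and 71.2 CPM in CAS129, and Epcam had 29.7 CPM in 129CAS and 39.6, 36.5 and 18.4 CPM in CAS129.

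Of 10 endothelium and blood genes, 3 were higher (30%) and 0 lower in 129CAS, against 14.6% and 15.7% of all genes. Cdh5 (VE-cadherin) had 136 CPM in 129CAS and 1.78, 3 and 5.48 CPM in CAS129 (log2 5.32, SE 0.61, adjusted p = 5.9e-05). Csf1r, the receptor of macrophage growth factor, had 141 CPM in 129CAS and 24, 23.7 and 24 CPM in CAS129 (log2 2.56, SE 0.29, adjusted p = 6.3e-05). The third, Vwf (von Willebrand factor), had 1.03 CPM in 129CAS and 0, 0.333 and 0.177 CPM in CAS129, and its call (adjusted p = 0.035) was lost without CAS129 replicate 1 or 3 or either 129 library (adjusted p 0.053 to 0.089). Pecam1, an endothelial adhesion gene, had 31.4 CPM in 129CAS and 10.7, 16.2 and 7.25 CPM in CAS129 and was not called (adjusted p = 0.064). The receptor gene Kdr had 11.3 CPM in 129CAS and 5.5, 6.5 and 9.54 CPM in CAS129 (adjusted p = 0.57). Of 17 endoderm and trophoblast genes 2 were higher and 3 lower, and of 19 muscle genes 4 were higher and 2 lower.

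Of 21 interferon and antigen presentation genes, 9 were higher (42.9%) and 2 lower (9.52%) in 129CAS, against 14.6% and 15.7% of all genes. The median was 1.08. Ifit1, induced by interferon, had 35.1 CPM in 129CAS and 0.485, 0.833 and 1.41 CPM in CAS129 (log2 5.27, SE 0.49, adjusted p = 1.0e-05). Oasl2 had 32.6 CPM in 129CAS and 1.13, 2.83 and 1.41 CPM in CAS129 (log2 4.18, SE 0.59, adjusted p = 0.00032). Ifit1 had 22.2 and 30.4 CPM in 129, 21.7 CPM in CAST and 2.93 to 7.41 CPM in BL6, and Oasl2 had 23 and 19.6 CPM in 129, 14.1 CPM in CAST and 6.97 to 19.2 CPM in BL6. Ifitm2, of the same response, fell to 22.1 CPM in 129CAS, against 110, 95 and 87.7 CPM in CAS129 (log2 -2.14, SE 0.36, adjusted p = 0.0012). With a mean of at least 10 CPM required, 4 members were higher.

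Imprinted genes are read from 1 parental copy, and reciprocal hybrids differ in which strain supplies it. Of 34 tested, 7 were higher and 7 lower in 129CAS (20.6% each), against 14.6% and 15.7% of all genes, with a median of 0.18. Igf2, a fetal growth factor read from the paternal copy, had 27.6 CPM in 129CAS and 418, 494 and 533 CPM in CAS129 (log2 -4.12, SE 0.73, adjusted p = 0.0015); it had 170 and 159 CPM in 129, 5.48 CPM in CAST and 14.8 to 57.6 CPM in BL6. Plagl1 had 197 CPM in 129CAS and 348, 370 and 457 CPM in CAS129 (log2 -0.99, SE 0.22, adjusted p = 0.0054). Inpp5f had 609 CPM in 129CAS and 115, 133 and 157 CPM in CAS129 (log2 2.17, SE 0.46, adjusted p = 0.0041). Peg3 had 1670 CPM in 129CAS and 1644, 1691 and 1846 CPM in CAS129, inside their range (adjusted p = 0.99). Counts per gene do not separate the parental copies, so that these totals do not show from which copy the RNA came. Several imprinted genes are tissue-specific, and their difference cannot be told apart from that of the cell types above.

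Of 28 immediate early and stress genes, 1 was higher (3.57%) and 4 lower (14.3%) in 129CAS, against 14.6% and 15.7% of all genes. Slc7a11, the cystine transporter (ENSMUSG00000027737, chromosome 3 from 49892526 to 50443614), had 3.68 CPM in 129CAS and 342, 337 and 309 CPM in CAS129 (log2 -6.48, SE 0.47, adjusted p = 1.2e-06). The MN libraries of the strains split likewise: 3.61 and 4.5 CPM in 129, 576 CPM in CAST and 7.36 to 15.6 CPM in BL6. Of 19 glycolysis genes, 2 were higher and 4 lower (21.1%), in all a share near that over all genes (30.3%); Eno1 (enolase) had 764 CPM in 129CAS and 1859, 1938 and 1374 CPM in CAS129 (log2 -1.17, SE 0.29, adjusted p = 0.0099), and Gpi1 had 417 CPM in 129CAS and 453, 442 and 454 CPM in CAS129 (adjusted p = 0.72). Of 5 sex-linked genes tested 1 was called, Kdm6a, which escapes X inactivation, with 36.6 CPM in 129CAS and 25.6, 25.2 and 22.1 CPM in CAS129; its call (adjusted p = 0.045) was lost without any 1 of the CAS129 or 129 libraries (adjusted p 0.058 to 0.096).

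The largest rises, taken by a fixed rule among protein-coding genes outside opposite-strand hosts, were of low genes in CAS129. Calb1 (calbindin, a calcium buffer of some neurons) had 95.5 CPM in 129CAS and 1.94, 2.67 and 1.59 CPM in CAS129 (log2 5.52, SE 0.65, adjusted p = 7.8e-05), and it was 166 CPM in CAST but 2.12 to 13.1 CPM in 129 and BL6. Onecut3, the third gene of the Onecut family, had 22.9 CPM in 129CAS and 0.324, 0.833 and 0.353 CPM in CAS129 (log2 5.48, SE 0.79, adjusted p = 0.00037). The prolactin family gene Prl2a1, known from placenta, had 192 CPM in 129CAS and 4.05, 2.83 and 7.42 CPM in CAS129 (log2 5.34, SE 1.02, adjusted p = 0.0024). Serpinb9c, a serine protease inhibitor gene, had 45 CPM in 129CAS and 0.647, 0.833 and 1.24 CPM in CAS129, the largest log2 rise at 5.63 (SE 0.53, adjusted p = 1.2e-05). The other 6 were Cntn5, Cdh5, Ifit1, Fthl17a, Cxcr2 and Dhrs9, at log2 differences from 5.00 to 5.60. Psg29 (12.4 CPM in 129CAS) and Krt16 (10.7 CPM in 129CAS) had 0 counts in all 3 CAS129 libraries and were at least 73.7-fold and at least 63.8-fold higher in 129CAS, against a floor of 3 counts over the CAS129 group.

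The largest falls mixed stem cell genes with genes of another pattern. Tdh, a threonine dehydrogenase of mouse stem cells, had 0.0354 CPM in 129CAS and 63.1, 79 and 20.1 CPM in CAS129 (log2 -10.27, SE 1.40, adjusted p = 0.00026), and the growth factor Gdf3 had 0.0354 CPM in 129CAS and 24.3, 26.3 and 7.78 CPM in CAS129. Both were at most 1.16 CPM in every MN library of the inbred strains. 1700022I11Rik had 0.141 CPM in 129CAS and 337, 347 and 340 CPM in CAS129 (log2 -11.15, SE 0.45, adjusted p = 2.2e-08). Like the stem cell genes it was near 0 in 129 (0.0445 and 0.0228 CPM), but unlike them it was high in CAST (198 CPM) and in BL6 (156 to 243 CPM). Myo1h, Slc24a5, Gm26566, Cd72, Nr1i3 and Gm10382 shared that pattern, as did Slc15a3, Prss57, Sla2 and Pkd2l2, which had 0 counts in 129CAS. Of these 10 genes, all except Gm10382 have exons that overlap the opposite strand, from 10.9% of exon bases in Pkd2l2 to 74.9% in Nr1i3. 1700022I11Rik, with the largest fall of this pattern among protein-coding, non-nested genes with counts in 129CAS, has 0% overlap. The nested gene Gm29233, described below, has 74% overlap and fell further (log2 -12.20). Slc15a3 had 155, 141 and 153 CPM in CAS129 and was at least 1411-fold lower in 129CAS.

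Genes that lie wholly within an opposite-strand gene were counted apart, because reads of 2 overlapping genes can be told apart only if counting uses the strand, and the sources used here do not give the strand setting for any library. Of 444 such genes, 166 (37.4%) were lower and 31 (6.98%) higher in 129CAS, with a median of -0.80. A further 2937 genes had exons that overlap an opposite-strand exon without lying inside a gene; 805 (27.4%) were lower and 269 (9.16%) higher. Of the remaining 11456 genes, 1365 (11.9%) were lower and 1862 (16.3%) higher, with a median of 0.02. Falls over 8-fold (with 0.1 CPM added to both sides) made up 27.7% of the genes inside, 8.89% of the exon overlaps and 2.52% of the rest. Without all overlapping genes, 1551 genes were higher and 1510 lower of 11456 tested, so that the excess of falls over rises was not seen.

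The nested genes given here have the highest CAS129 levels among those over 8-fold lower in 129CAS. Their low 129CAS values thus follow from the choice. The hosts of these genes differed less or not beyond the spread. Not every nested gene fell: Nefl, inside Nefm, had 1386 CPM in 129CAS and 191, 270 and 318 CPM in CAS129. Gm29233, a lincRNA inside Thbs1 (chromosome 2 from 118123451 to 118124047, minus strand), had 0.247 CPM in 129CAS and 1264, 1135 and 1225 CPM in CAS129, whereas its host Thbs1 had 6238 CPM in 129CAS and 11226, 9434 and 10069 CPM in CAS129 (log2 -0.72, adjusted p = 0.33). Gm24157, a predicted miRNA gene inside Ppp2ca (chromosome 11 from 52099043 to 52099153, minus strand), had 0.566 CPM in 129CAS and 119, 121 and 110 CPM in CAS129, and Ppp2ca had 237 CPM in 129CAS and 226, 242 and 195 CPM in CAS129. Gm13372, inside Col5a1, had 0 counts in 129CAS and 189, 198 and 206 CPM in CAS129, at least 1863-fold lower in 129CAS; its host fell 5-fold. In the other MN libraries Gm29233 had 0.134 and 0.456 CPM in 129, 288 CPM in CAST and 426 to 1576 CPM in BL6. Gm13372 had 0 and 0.0228 CPM in 129, 99.8 CPM in CAST and 86.2 to 218 CPM in BL6. For both genes the 129 libraries were near 0, as 129CAS was, and CAST and BL6 were not; 129CAS and 129 are also the 3 libraries with the most counts. Whether these libraries were counted with another strand setting was not tested, and differences of nested genes are not read here as expression. Markers with such overlap carry the same limit in part: Fbn1, Syt4 (14.5% of exon bases) and Csf1r (15.1% of exon bases) among those above.

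**Figure D4:**
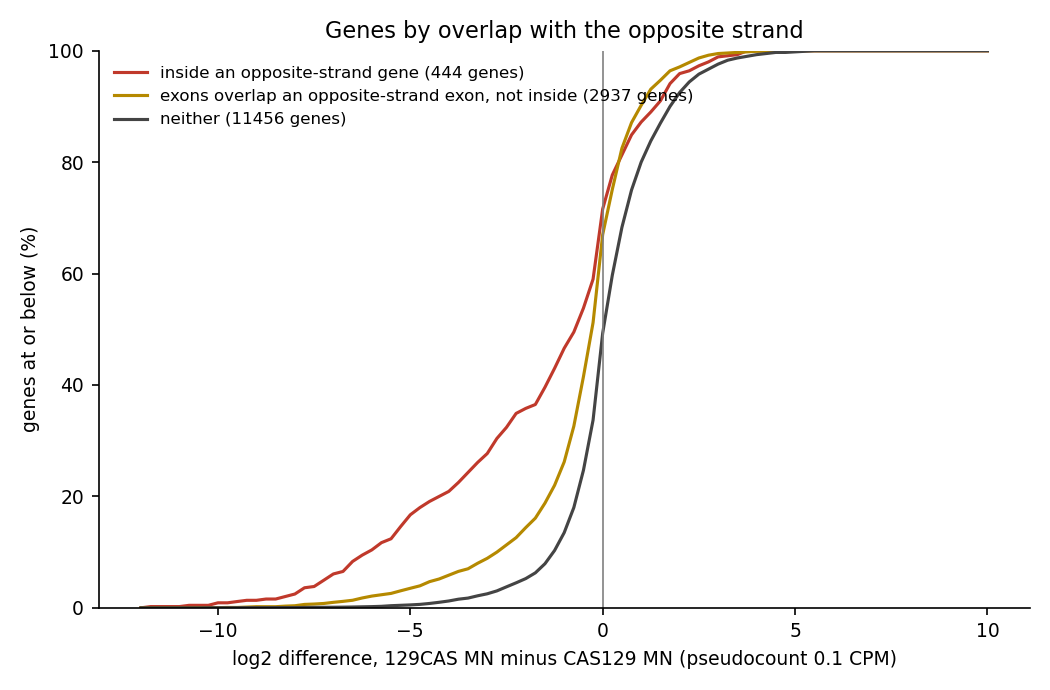
Cumulative share of genes by the log2 difference of 129CAS MN minus CAS129 MN (0.1 CPM added to both), for genes inside an opposite-strand gene, genes with exons that overlap the opposite strand, and the rest. The curve of the 444 nested genes rises far left of the others, with 27.7% of them over 8-fold lower in 129CAS.

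A second feature of the counts was shared by the 4 hybrid libraries. Of the genes tested, 782 (5.27%) had 0 counts in all 4, and 340 of them had at least 10 CPM in each of the 10 MN libraries of the inbred strains. They include genes used by every cell, such as the cytoskeletal actin Actg1, which had 662 to 2596 CPM in those libraries. Peg10, Tmsb10, Map2 and Mapt were among the others, all named after their values were seen. The zeros are listed values and are not read here as measured absence. Their reason was not tested. With 0 listed in all 4 libraries, these genes say nothing of the comparison. Without them, 4498 of 14055 (32%) were called. Of 8 mitochondrial genes tested, 0 were called higher and 1 lower, the tRNA gene mt-Ts1, named after its values were seen. It had 0.566 CPM in 129CAS and 482, 316 and 593 CPM in CAS129 (log2 -9.66, SE 1.57). In the other MN libraries mt-Ts1 had 0.468 and 0.251 CPM in 129, 523 CPM in CAST and 0.789 to 12.7 CPM in BL6. The protein-coding genes mt-Cytb and mt-Nd5 were listed at 0 in all 4 hybrid libraries. mt-Nd6 had 86.2 CPM in 129CAS and 486, 314 and 497 CPM in CAS129, 0 in both 129 libraries, 250 CPM in CAST and 234 to 978 CPM in BL6, and missed the threshold (adjusted p = 0.051).

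X-linked genes were more often higher than lower in 129CAS. Of 512 X-linked genes, 107 (20.9%) were higher and 41 (8.01%) lower in 129CAS, against 14.4% and 16% of 14310 autosomal genes, and the median log2 difference was 0.34, against 0.00. In the main fit, 450 X-linked genes had no opposite-strand overlap, of which 101 (22.4%) were higher and 32 (7.11%) lower. Among autosomal genes without overlap, 16% were higher and 12.1% lower. When overlapping genes were left out before fitting, 78 of the 450 X-linked genes were higher and 31 lower, with a median of 0.29. Between settings the X median ran from 0.05 with no filter on low counts to 0.43 with the 4 hybrid libraries alone. Chromosome 18 also had more rises, with 21.3% higher and 13.2% lower, and chromosome 17 had more falls, with 11.4% higher and 21.2% lower. Ddx3x and Eif2s3x, X-linked genes read in both sexes, had 302 and 234 CPM in 129CAS; Ddx3x had 403, 360 and 307 CPM and Eif2s3x had 247, 230 and 223 CPM in CAS129, and neither was called (adjusted p = 0.37 and 1). No test of the chromosomes was made.

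**Figure D5:**
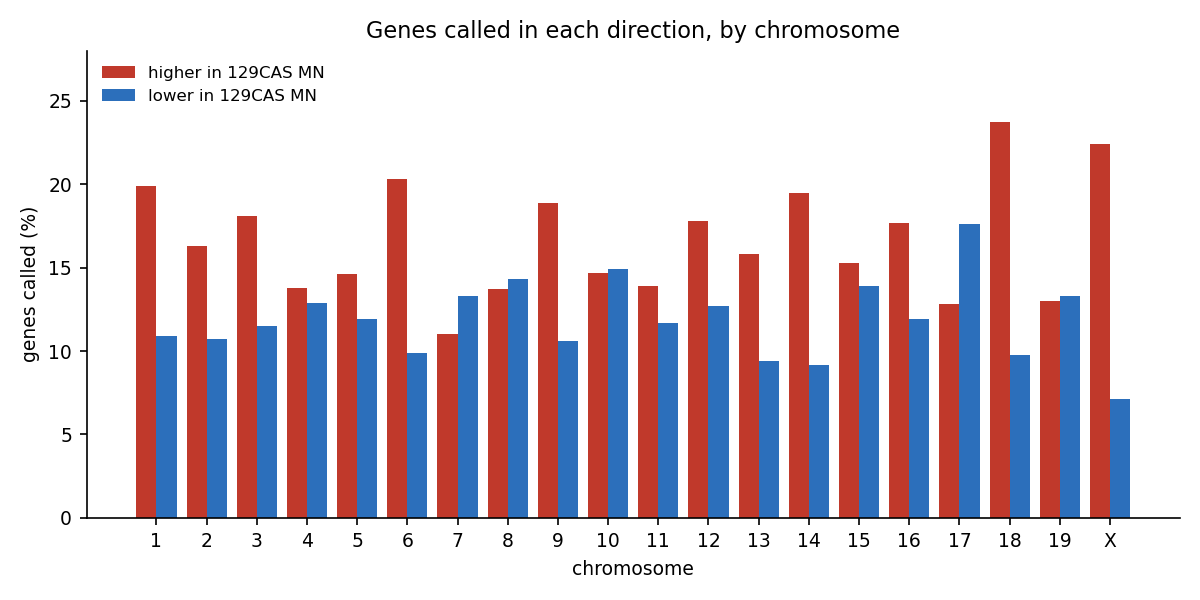
Share of tested genes without opposite-strand overlap called higher (red) or lower (blue) in 129CAS MN than in CAS129 MN, as a percentage, for each chromosome. X has 22.4% higher and 7.11% lower, and chromosome 18 has 23.7% higher and 9.76% lower.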

How the data were processed

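RNA was measured by sequencing in mouse stem cells and in motor neurons made from them. Per the labels' protocols, motor neuron RNA was purified with the RNAqueous-Micro kit, treated with DNase, captured on poly-T beads and copied with random hexamers. STAR and the GRCm38/mm10 genome are named in the submitters' processing notes; the sources used here name no counting program, annotation or strand setting. The values are whole-number counts per gene, deposited by the authors in 1 table without normalization. Of its 28 columns of libraries, 20 were matched to samples by title and 8 were not used; 7 of 27 samples had no matched column and are not analysed here.

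Counts of the 14 MN libraries were scaled by TMM and fitted with edgeR 4.0.16 in R 4.3.3 (quasi-likelihood test, 5 groups, 9 residual degrees of freedom, Benjamini-Hochberg adjusted p under 0.05). Genes with at least 1 CPM in at least 2 libraries were kept. The single 129CAS library was assumed to vary like the other groups. Counting error and floors of 3 counts cover counting only, and depth sets the lowest detectable level: 0.106 CPM in 129CAS and 0.168 CPM over the 3 CAS129 libraries. Gene positions and opposite-strand overlap came from GENCODE M21, to which 27031 of 27071 identifiers matched. Alternatives were RLE and upper-quartile scaling, DESeq2 1.42.0, other filters, the 4 hybrids alone, thinning of the 129CAS library, leaving out overlapping genes, and leaving out each CAS129 or 129 library. The test was tried on simulated data.

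Named genes were the 4 markers, the 10 largest rises and falls among protein-coding genes called with a mean of at least 10 CPM in the higher group, genes at 0 in 1 group, and in each list up to 4 called and 2 other members by mean CPM; other genes given are markers of cell types or list members. The members and gene lists were chosen with earlier results of these data known. Exceptions are marked as named after their values were seen.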

Additional observations from a re-analysis of the deposited data

How the results depend on the processing

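The total of 4498 genes called was 4453 with RLE scaling, 4490 with upper-quartile scaling, 5253 with DESeq2, 3866 with no filter on low counts 4106 with the 129CAS library thinned to 5992403 counts, 6563 with the 4 hybrids alone and 3061 without genes that overlap the opposite strand; leaving out 1 CAS129 or 129 library gave 3302 to 4004. Fitting the 4 hybrids alone gave 3298 genes higher, 18 axon growth genes higher and 163 chromosome X genes higher. Leaving out genes that overlap the opposite strand gave 1510 genes lower, and 15 synaptic, 8 pan-neuronal and 6 axon growth genes higher. No filter gave 7 axon growth genes higher. A mean of at least 10 CPM gave 4 interneuron and 4 interferon genes higher and 64 genes lower inside an opposite-strand gene. Leaving out 1 library gave 5 to 8 motor neuron, 5 to 9 interneuron, 8 to 13 axon guidance and 5 to 8 axon growth genes higher. The cause of these changes was not tested, except that stricter filters and leaving out genes test fewer genes. Of 169 named genes, 115 had the same call under every alternative that gave a value, and 0 reversed. The share called without genes at 0 in all 4 hybrids was an alternative chosen after seeing the data, as was naming the largest changes among genes with no opposite-strand overlap. No paired analysis was possible because 129CAS has 1 library and so shares fewer than 2 replicate numbers with CAS129. With 1 library of 129CAS, its own spread could not be measured.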
